A study of Mus musculus with 120 samples.

Results

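The genes described here are 36 markers of the non-parenchymal cells of the liver, measured in the livers of 30 mouse strains. They were taken by symbol from a fixed list, as 13 macrophage markers (Adgre1, Cd68, Clec4f, Csf1r, Vsig4, Marco, Cd5l, Lyz2, Cd163, Timd4, Folr2, Mpeg1 and Spic), 12 endothelial markers (Lyve1, Stab1, Stab2, Clec4g, Oit3, Pecam1, Kdr, Flt4, Tek, Eng, Ehd3 and Cdh5) and 11 stellate cell or fibroblast markers (Acta2, Des, Lrat, Reln, Pdgfrb, Vim, Dcn, Lum, Ecm1, Hgf and Timp1). They are 36 of the 18193 genes with a probe set of their own on the array, and all 36 were on it, with 57 probe sets. Of these, 42 probe sets of 33 genes passed the filter on low values and were tested. Those were 13 of 17 macrophage, 17 of 18 endothelial and 12 of 22 stellate probe sets. No probe set of Timd4, Spic or Hgf passed.

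All mice were males of 10 weeks, fasted for 4 h. C57BL/6J (B6) was the control. MSM is a strain inbred from wild mice caught in Japan. The other 28 strains were consomic, that is, B6 with a single chromosome replaced by that of MSM. They are named after what they carry, as B6-Chr7MSM for the whole of chromosome 7, B6-Chr7CMSM and B6-Chr7TMSM for its parts and B6-mtMSM for the mitochondrial DNA. They carried chromosome 1, 3, 4, 5, 7, 8, 9, 11, 14 to 19 or Y, the centromeric (C) or telomeric (T) part of chromosome 2, 6, 7, 12, 13 or X, or the mitochondrial DNA (mt) of MSM. No consomic strain carried chromosome 10, on which Lyz2, Spic, Stab2, Oit3, Dcn and Lum lie. The panel asks which strain differences go with which chromosome. Each strain was represented by 2 males and each male by 2 arrays, 120 arrays in all, and the number of males limits the precision.

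Kupffer cells are the resident macrophages of the liver. They line the sinusoids, clear particles and old red cells from portal blood, and depend on signalling through the receptor Csf1r. Sinusoidal endothelial cells form a fenestrated wall with scavenger receptors such as Stab1, Stab2 and Lyve1. Stellate cells store retinyl esters, which the enzyme Lrat makes, and turn into matrix-producing cells in fibrosis. All were measured here in whole liver, where fewer cells of a type and less RNA per cell cannot be told apart. Sequence differences between B6 and MSM under the probes were not examined, and their part in the signals was not tested. Of the hepatocyte markers, 9 of 9 genes on the array passed the filter. So did 4 of 5 erythroid, 4 of 5 pancreas, 4 of 7 cholangiocyte and 3 of 5 adipocyte markers. For neutrophil, lymphocyte, mesothelial and muscle markers the counts were 4 of 8, 5 of 11, 2 of 6 and 1 of 6. Over all genes 11949 of 18193 passed, so these counts do not identify the tissue.

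The promoters of Vsig4, Cd5l, Clec4f and Lyz2 are shown because these macrophage markers, which lie on 4 different chromosomes, moved together from male to male more closely than most. The 120 bases before the RefSeq start (GRCm38.p6) are given 5′ to 3′ on the strand of the gene, at chrX:96293439-96293558 (minus strand), chr3:87357761-87357880 (plus), chr6:83656117-83656236 (minus) and chr10:117282273-117282392 (minus). Capitals mark GAGGAA or its reverse complement TTCCTC, the core bound by the macrophage factors PU.1 and Spi-C, the product of Spic.
Vsig4: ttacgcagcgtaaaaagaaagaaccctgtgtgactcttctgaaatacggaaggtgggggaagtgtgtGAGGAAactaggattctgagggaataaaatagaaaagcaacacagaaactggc
Cd5l: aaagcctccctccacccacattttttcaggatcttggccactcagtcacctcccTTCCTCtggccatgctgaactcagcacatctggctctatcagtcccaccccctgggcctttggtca
Clec4f: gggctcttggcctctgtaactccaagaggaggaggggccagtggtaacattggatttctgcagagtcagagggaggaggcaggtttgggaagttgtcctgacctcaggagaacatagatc
Lyz2: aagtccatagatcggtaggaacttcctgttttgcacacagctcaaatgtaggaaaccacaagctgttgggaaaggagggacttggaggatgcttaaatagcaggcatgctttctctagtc
Vsig4 and Cd5l held the motif in this stretch and Clec4f and Lyz2 did not. Over the 250 bases before the start, on both strands, it was present in 4 of 12 macrophage, 2 of 8 endothelial and 4 of 9 stellate promoters, against 23.3% of all 32851 promoters in the table. AGATAA or TTATCT, a core of the GATA factors that specify sinusoidal endothelium, was present in 1 of 12, 0 of 8 and 0 of 9, against 9.99% of all. Promoters of 27 of the 36 genes were in the table.

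The deposited values are on a log2 scale, but the males of one strain differed very little: over the tested probe sets the SD left between them had a median of 5.99e-05. How this came about is not given in the sources used here. A difference is therefore not read as a log2 fold change, nor is its size on that scale set against that of another gene. Levels are given in SD units: the deviation of a male from the mean of all 60 males, divided by that residual SD of the probe set. Differences between strains carry a standard error (SE) of about 0.99 SD units for 2 males against 2. A probe set was called at an adjusted p below 0.05 in limma, Benjamini-Hochberg adjusted over all 22551 tested probe sets.

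Of 13 tested macrophage probe sets, 6 fell in MSM against B6, of Csf1r (on 2 of its 3 probe sets), Folr2, Lyz2, Clec4f and Vsig4, and 0 rose, while 9.66% of all tested probe sets fell and 13.1% rose. All 13 differences were negative as deposited and with the males centred on their median scaled level, and 11 of 13 were under quantile normalization, where Adgre1 and the Csf1r probe set 1423593_a_at turned positive. The median of the 13 was −2.36 SD units, against 0.533 over all tested probe sets. Under each of these scalings 13 of 13 lay below the median of all tested probe sets, which moved to −0.0056 with centring and to 5.92 with quantile normalization.

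Csf1r, the receptor for the growth factors Csf1 and Il34, stood at −0.17 and −0.49 SD units in the B6 males and at −4.31 and −4.69 in the MSM males on its brightest probe set (1419872_at). The groups did not overlap, and the MSM values were the lowest of all 60 males. The difference was −4.17 ± 0.99 SD units (SE; limma adjusted p = 0.00232), which is −0.024 ± 0.0056 on the deposited log2 scale. The probe set 1419873_s_at fell by 2.86 SD units (adjusted p = 0.0354) and 1423593_a_at stood at −1.92 (adjusted p = 0.162). Under quantile normalization 1423593_a_at was called higher in MSM, at 5.67 in the SD of the normalized values (limma adjusted p = 4.9e-06). In the same fit 1419872_at was called lower (−3.82, adjusted p = 0.000719), and the median of all tested probe sets was 5.92. The call on 1419872_at held whichever of the 4 males was dropped, and that of 1419873_s_at was lost with each of them (adjusted p from 0.0968 to 0.165), under quantile normalization (0.128) and on the first arrays alone (0.0860).

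Folr2, a folate receptor of resident macrophages, stood at −0.38 and −0.43 SD units in B6 and at −4.69 and −4.34 in MSM. It fell by 4.11 ± 0.99 SD units (limma adjusted p = 0.00263), and the call held whichever of the 4 males was dropped. Lyz2, the lysozyme of myeloid cells, stood at −0.46 and −0.19 in B6 and at −3.85 and −3.89 in MSM. It fell by 3.55 SD units (adjusted p = 0.00909), but its adjusted p was 0.0604 when B6 male 2 was left out, 0.0501 for MSM male 1 and 0.0563 for MSM male 2. In both genes the MSM males lay below both B6 males.

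Clec4f, a C-type lectin found in the mouse on Kupffer cells, stood at 0.099 and −0.34 SD units in B6 and at −3.35 and −3.58 in MSM. It fell by 3.34 SD units (limma adjusted p = 0.0137), but had an adjusted p of 0.0981 when B6 male 1 was left out, 0.0576 for MSM male 1 and 0.0841 for MSM male 2, and 0.101 under quantile normalization. Vsig4, the complement receptor of Kupffer cells, stood at −0.40 and −0.36 in B6 and at −3.13 and −3.32 in MSM. It fell by 2.85 SD units (adjusted p = 0.0357), and this call was lost whichever of the 4 males was dropped (adjusted p from 0.112 to 0.148), and on the first (0.0635) or second arrays (0.0657) alone. Leaving out any single B6 or MSM male kept 2 or 3 lower calls in place of 6.

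The other macrophage markers did not pass. Adgre1, an adhesion receptor of macrophages, stood at −2.36 SD units in MSM against B6 (limma adjusted p = 0.0826), the scavenger receptor protein Cd5l at −2.08 (0.130), the haemoglobin scavenger Cd163 at −2.01 (0.144) and the lysosomal glycoprotein Cd68 at −1.56 (0.266). Mpeg1, a pore-forming protein of phagocytes, stood at −1.03 (0.481) and the scavenger receptor Marco at −0.64 (0.677). Both B6 males lay below the mean of the 60 males in Adgre1, Cd5l, Cd68, Mpeg1 and Marco. Against the mean of the other 29 strains, 11 of the 13 probe sets were lower in MSM, while 16.3% of all tested probe sets were lower and 24.7% higher. Cd163 (−1.40 SD units, adjusted p = 0.115) and Marco (−1.32, adjusted p = 0.136) were the exceptions. This comparison uses the same MSM males.

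Counted over the 11 tested macrophage genes, each by its brightest probe set, MSM had the lowest mean of the 30 strains in 9, and in 8 both MSM males lay below the other 58 males. Over all 11949 tested genes MSM was the lowest strain in 15.2%, and both males lay below the other 58 in 6.27%. The mean level of the 11 macrophage genes was −2.91 and −2.88 SD units in the MSM males and −0.36 and −0.39 in the B6 males. In the next lowest male, B6-Chr18MSM male 2, it was −1.41. The MSM males therefore stood apart from the rest of the panel in these genes.

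**Figure D1:**
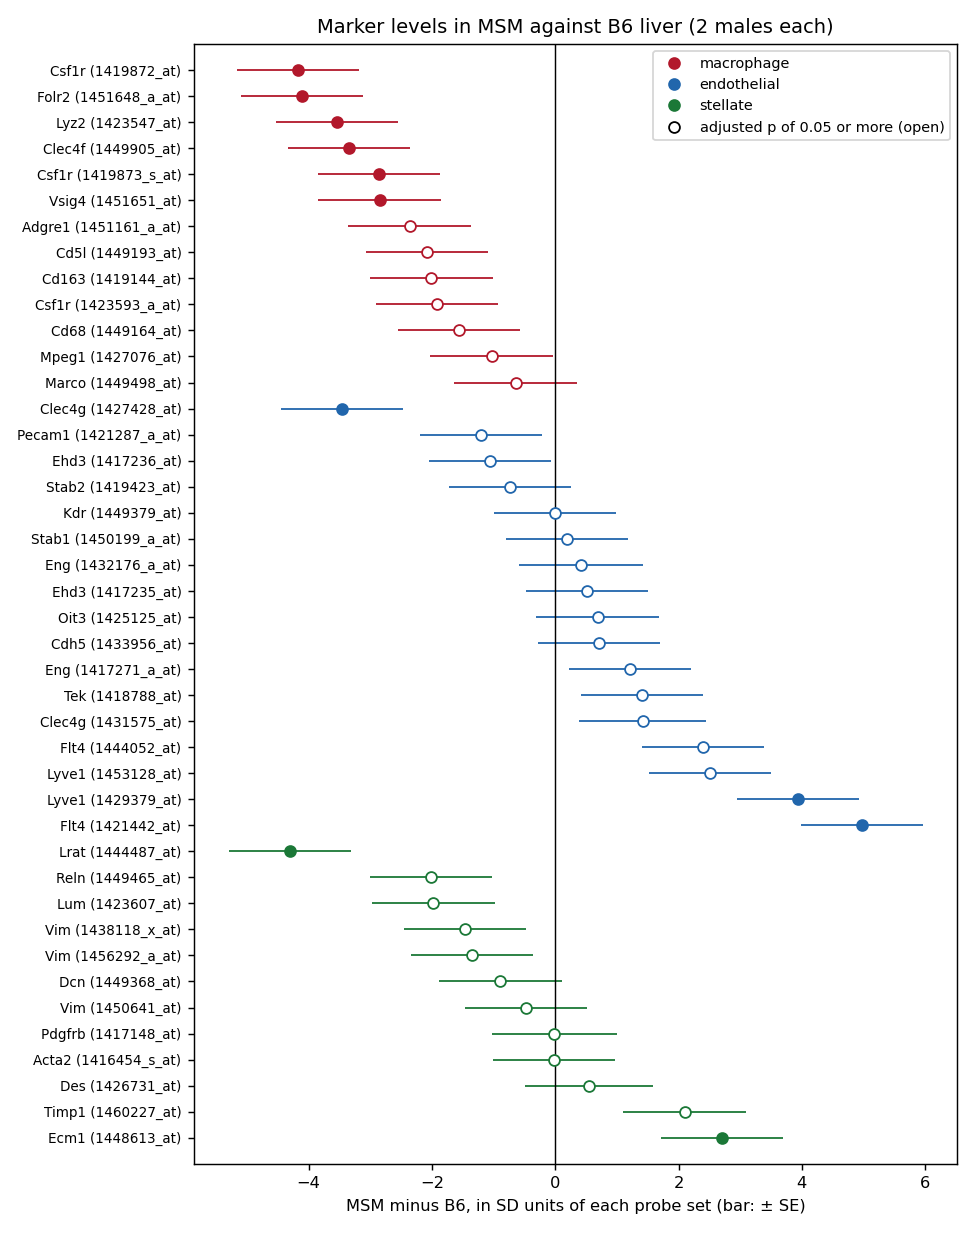
Difference between MSM and B6 liver for each of the 42 tested marker probe sets, in SD units of the probe set (bars: SE, 2 males against 2). Filled points passed an adjusted p of 0.05. All 13 macrophage points lie left of 0, while the endothelial and stellate points lie on both sides.

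A wider list of 27 macrophage and myeloid genes, of which 23 genes with 33 probe sets were tested, gave 2 lower and 4 higher calls in MSM, with 23 negative and 10 positive differences and a median of −1.29 SD units. These counts lie near the 9.66% lower and 13.1% higher of all tested probe sets. The lower calls were Msr1, a scavenger receptor (−3.21 SD units, limma adjusted p = 0.0179), and Ly86, a partner of a Toll-like receptor relative (−2.93, 0.0310). Among the higher calls were the mannose receptor Mrc1, which sinusoidal endothelium also carries (3.52, 0.00963), and the lysosomal Laptm5 (3.31, 0.0178). The chemokine receptors Ccr2 (3.16, 0.0241), of recruited monocytes, and Cx3cr1 (2.95, 0.0324) made up the rest. Of 23 probe sets of ligands and partner receptors, Csf1, a ligand of Csf1r, rose (3.85, adjusted p = 0.00919). Gdf2, the endothelial ligand BMP9, rose too (2.73, 0.0449), and Tgfbr2, a receptor for transforming growth factor beta, fell by 4.62 SD units (0.000853).

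Markers of other cells also differed between these males. The mean of 4 neutrophil genes was 1.79 and 1.43 SD units in the MSM males against −0.74 and −0.13 in B6. That of 3 adipocyte genes was −4.30 and −4.11 against 0.16 and 0.03, and that of 9 hepatocyte genes −0.03 and 0.35 against 0.20 and 0.59. The mean of 4 cholangiocyte genes was 1.35 and 1.34, the 2 highest of 60 males, against −0.42 and −0.76 in B6, and that of 4 erythroid genes 0.85 and 0.92 against −0.47 and 0.09. Of the tested probe sets, 1 of 4 neutrophil and 2 of 5 cholangiocyte ones were higher, 2 of 6 adipocyte and 1 of 19 hepatocyte ones lower, and of 5 erythroid ones 2 were higher and 1 lower. Over all tested probe sets these shares were 13.1% and 9.66%. The higher erythroid calls were 2 probe sets of Tfrc (6.54 and 4.27 SD units), and the lower one was Alas2 (−6.19, limma adjusted p = 1.98e-05). The neutrophil call was Cxcr2 (4.23) and the hepatocyte call Ttr (−18.4). The lower adipocyte calls were Car3 (−7.95 SD units) and Pparg (−4.03), and all 6 adipocyte differences were negative. In B6, Car3 stood at 12.65 and Pparg at 7.45 on the deposited log2 scale, where the median of all values was 7.42. Whether these genes stood for adipocytes in whole liver was not tested. The higher cholangiocyte calls were Krt23 (4.24) and Epcam (3.99). The other 3 of the 5 cholangiocyte differences were negative, and the median of the 5 was −0.123. The median of all tested genes was 0.47 and 0.46 in MSM and −0.08 and −0.16 in B6. The part of these in the macrophage difference was not tested.

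Among endothelial markers few calls were made in MSM. Of 17 tested probe sets, 2 rose (Flt4 and Lyve1) and 1 fell (Clec4g), shares no higher than the 13.1% and 9.66% of all tested probe sets, with 12 positive and 5 negative differences and a median of 0.687 SD units. Relative to the median of all tested probe sets, 8 of 17 lay below as deposited, 8 with centring and 10 under quantile normalization, which turned Clec4g positive and all 17 differences above 0. The wider list of endothelial genes, with 30 tested probe sets, gave 2 calls, both higher, and a median of −0.00081. They were Tie1, a receptor related to Tek (5.31 SD units, limma adjusted p = 0.000203), and the junction protein Esam (4.95, 0.000395).

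Flt4, the receptor for vascular endothelial growth factor C, stood at −0.01 and −0.71 SD units in B6 and at 3.91 and 5.32 in MSM on probe set 1421442_at. It rose by 4.97 ± 0.99 SD units (limma adjusted p = 0.000375), a call that held whichever of the 4 was dropped but not on the first arrays alone (0.0943) or in a fit of the B6 and MSM males alone (0.0596). The brighter probe set, 1444052_at, stood at −0.09 and −0.72 in B6 and 1.48 and 2.49 in MSM, a difference of 2.39 (adjusted p = 0.0796). On both, the MSM males lay above the B6 males.

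Lyve1, a hyaluronan receptor of sinusoidal and lymphatic endothelium, stood at −1.25 and −1.03 SD units in B6 and at 2.61 and 3.002 in MSM on probe set 1429379_at. It rose by 3.94 ± 0.99 SD units (limma adjusted p = 0.00388), and the call held whichever of the 4 males was dropped. Probe set 1453128_at stood at 2.52 (adjusted p = 0.0646). MSM had the highest Lyve1 mean of the 30 strains on both probe sets.

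Clec4g, the lectin LSECtin of sinusoidal endothelium, stood at 0.76 and 0.41 SD units in B6 and at −2.65 and −3.09 in MSM on probe set 1427428_at. It fell by 3.46 SD units (limma adjusted p = 0.0109), with an adjusted p of 0.0806 without B6 male 1 and 0.0834 without MSM male 2. The other Clec4g probe set, 1431575_at, stood at 1.42 (adjusted p = 0.337), so the probe sets of this gene disagreed in sign. The 2 arrays of a male barely agreed on 1431575_at (correlation 0.052 over the 60 males), against 0.827 on 1427428_at.

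Among the stellate and fibroblast markers, Lrat fell and Ecm1 rose in MSM, 1 call each of 12 probe sets, against 9.66% lower and 13.1% higher over all tested probe sets, and 9 of the 12 differences were negative with a median of −0.677 SD units. Quantile normalization left 5 of 12 negative, while 9 of 12 lay below the median of all tested probe sets under each scaling. Lrat stood at 0.83 and 1.03 SD units in B6 and at −2.93 and −3.81 in MSM, and fell by 4.30 ± 0.99 SD units (limma adjusted p = 0.00173), a call kept whichever of the 4 was dropped. Ecm1, a secreted matrix protein, stood at −0.29 and −0.79 in B6 and at 1.99 and 2.33 in MSM. It rose by 2.70 SD units (adjusted p = 0.0471), a call lost whichever of the 4 males was dropped (adjusted p from 0.120 to 0.190), with centring (0.0989), without a filter (0.0591) and on the second arrays alone (0.259).

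The fibroblast proteoglycan Lum (−1.98 SD units, limma adjusted p = 0.150), the secreted Reln (−2.01, 0.143) and the protease inhibitor Timp1 (2.10, 0.126) did not pass. Nor did the intermediate filament genes Vim (−1.46 on its brightest probe set, 0.299) and Des (0.55, 0.740), the proteoglycan Dcn (−0.89, 0.551), smooth muscle actin Acta2 (−0.014, 0.993) or the growth factor receptor Pdgfrb (−0.016, 0.993). Of the wider stellate and fibroblast list, 3 of 32 probe sets rose and 1 fell. The pericyte gene Rgs5 rose on both of its called probe sets (4.46 and 3.18), as did 1 of Sparc (2.74), and the fibril-associated collagen Col14a1 fell by 3.28 SD units (adjusted p = 0.0156).

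Over the 30 strains together, limma's moderated F called 8 marker probe sets: 3 macrophage (Folr2, Csf1r and Lyz2), 4 endothelial (Oit3, Clec4g, Lyve1 and Flt4) and 1 stellate (Lrat), while 15.5% of all tested probe sets were called. The median F was 1.95 for macrophage, 1.68 for endothelial and 1.26 for stellate probe sets, against 1.38 over all. Folr2 had the largest F of the markers (7.59), followed by Oit3 (6.67) and Clec4g (4.97). Of the 60 fits with 1 male left out, the calls of Folr2, Oit3, Clec4g and Lyve1 held in each. Lyz2 was lost in 41 (adjusted p up to 0.191), Flt4 in 6 (up to 0.306), Lrat in 4 (up to 0.127) and Csf1r in 3. On the first arrays alone the calls of Oit3 (0.0994), Lyve1 (0.0827) and Flt4 (0.869) were lost, on the second arrays those of Csf1r (0.0505), Lyz2 (0.0889) and Lrat (0.0957), and without a filter those of Lyz2 (0.0610) and Flt4 (0.0512). For Csf1r the lost fits with 1 male left out were those without MSM male 1 (adjusted p = 0.167), MSM male 2 (0.209) and B6-Chr18MSM male 2 (0.0530). Without either MSM male Lrat (0.0849 and 0.127) and Flt4 (0.136 and 0.306) were lost too. The Lrat call was also lost without B6-Chr3MSM male 1 (0.0608) or B6-mtMSM male 2 (0.0524), and that of Flt4 without either male of the B6-Chr11MSM (0.0794 and 0.0675) or B6-Chr2TMSM strain (0.0535 and 0.0554).

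Folr2 lies on chromosome 7, and the males that carried this chromosome from MSM held its lowest values beside MSM itself. The 60 males ran from −4.99 to 3.95 SD units with a median of 0.40. The B6-Chr7MSM males stood at −4.41 and −4.99, the B6-Chr7CMSM males at −4.66 and −4.89 and the B6-Chr7TMSM males at −2.79 and −3.92. Together with the MSM males they were the 8 lowest of 60, and no other male was among them. Against B6, the Folr2 difference was −4.30 SD units in the B6-Chr7MSM strain (limma adjusted p = 0.0209) and −4.37 in the B6-Chr7CMSM strain (0.0333), both called, and stood at −2.95 in B6-Chr7TMSM (0.372).

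Each consomic strain was also set against the mean of all strains without MSM material on that chromosome, MSM left out, which has a smaller error. In that comparison Folr2 fell in all 3 strains, with differences of −5.37 ± 0.71 SD units in B6-Chr7MSM, −5.44 ± 0.71 in B6-Chr7CMSM and −4.02 ± 0.71 in B6-Chr7TMSM (limma adjusted p = 1.19e-05, 8.26e-06 and 0.00151). The first 2 held with every male left out in turn, and that of B6-Chr7TMSM had an adjusted p of 0.0920 without B6-Chr7TMSM male 2. Against B6 the B6-Chr7MSM call was lost without either B6 male (adjusted p = 0.190 and 0.161) or B6-Chr7MSM male 2 (0.206). The B6-Chr7CMSM call was lost without any of the B6 and B6-Chr7CMSM males (from 0.216 to 0.368). On the first arrays alone both were lost (0.0919 and 0.164), and B6-Chr7CMSM also without a filter (0.0507) and under quantile normalization (0.0518). B6-Chr7TMSM stood above B6-Chr7CMSM by 1.42 ± 0.99 SD units (adjusted p = 0.99997), so the part strains did not differ beyond their error, and the MSM segments they carry are not bounded in the labels.

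Clec4g lies on chromosome 8, and it was lowest in the B6-Chr8MSM strain. On probe set 1427428_at the 60 males ran from −6.22 to 2.40 SD units with a median of 0.62, and the B6-Chr8MSM males stood at −6.22 and −4.86, below the MSM males given above. It fell by 6.12 ± 0.99 SD units against B6 (limma adjusted p = 0.000700; 0.0553 without B6-Chr8MSM male 1) and stood at −5.84 ± 0.71 against the other strains (adjusted p = 3.26e-06). Under quantile normalization both calls were lost (adjusted p = 0.240 and 0.155). On 1431575_at the B6-Chr8MSM strain stood at 0.46 against the other strains (adjusted p = 0.961).

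Flt4, on chromosome 11, stood at 2.76 and 2.42 SD units in the B6-Chr11MSM males on 1421442_at, in a range of 60 males from −3.10 to 5.32. These and the MSM males were the 4 highest. It rose by 2.85 ± 0.71 SD units against the other strains (limma adjusted p = 0.0304), but the adjusted p was 0.894 without B6-Chr11MSM male 1 and 0.151 without B6-Chr11MSM male 2, and 0.227 against B6. It was 0.532 under quantile normalization and 0.813 on the first arrays alone. The brighter probe set 1444052_at stood at −0.36 in the same strain (adjusted p = 0.951).

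Lrat, on chromosome 3, stood at −4.07 and −1.60 SD units in the B6-Chr3MSM males, in a range from −4.07 to 3.24. It fell by 3.06 ± 0.71 SD units against the other strains (limma adjusted p = 0.0240), with an adjusted p of 0.662 without B6-Chr3MSM male 1, and stood at −3.77 against B6 (0.0919). Over all markers and own-chromosome strains, 52 combinations were tested and 6 passed, 5 lower and 1 higher. Over all tested probe sets, 6.38% were lower and 3.83% higher in the strain of their own chromosome.

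**Figure D2:**
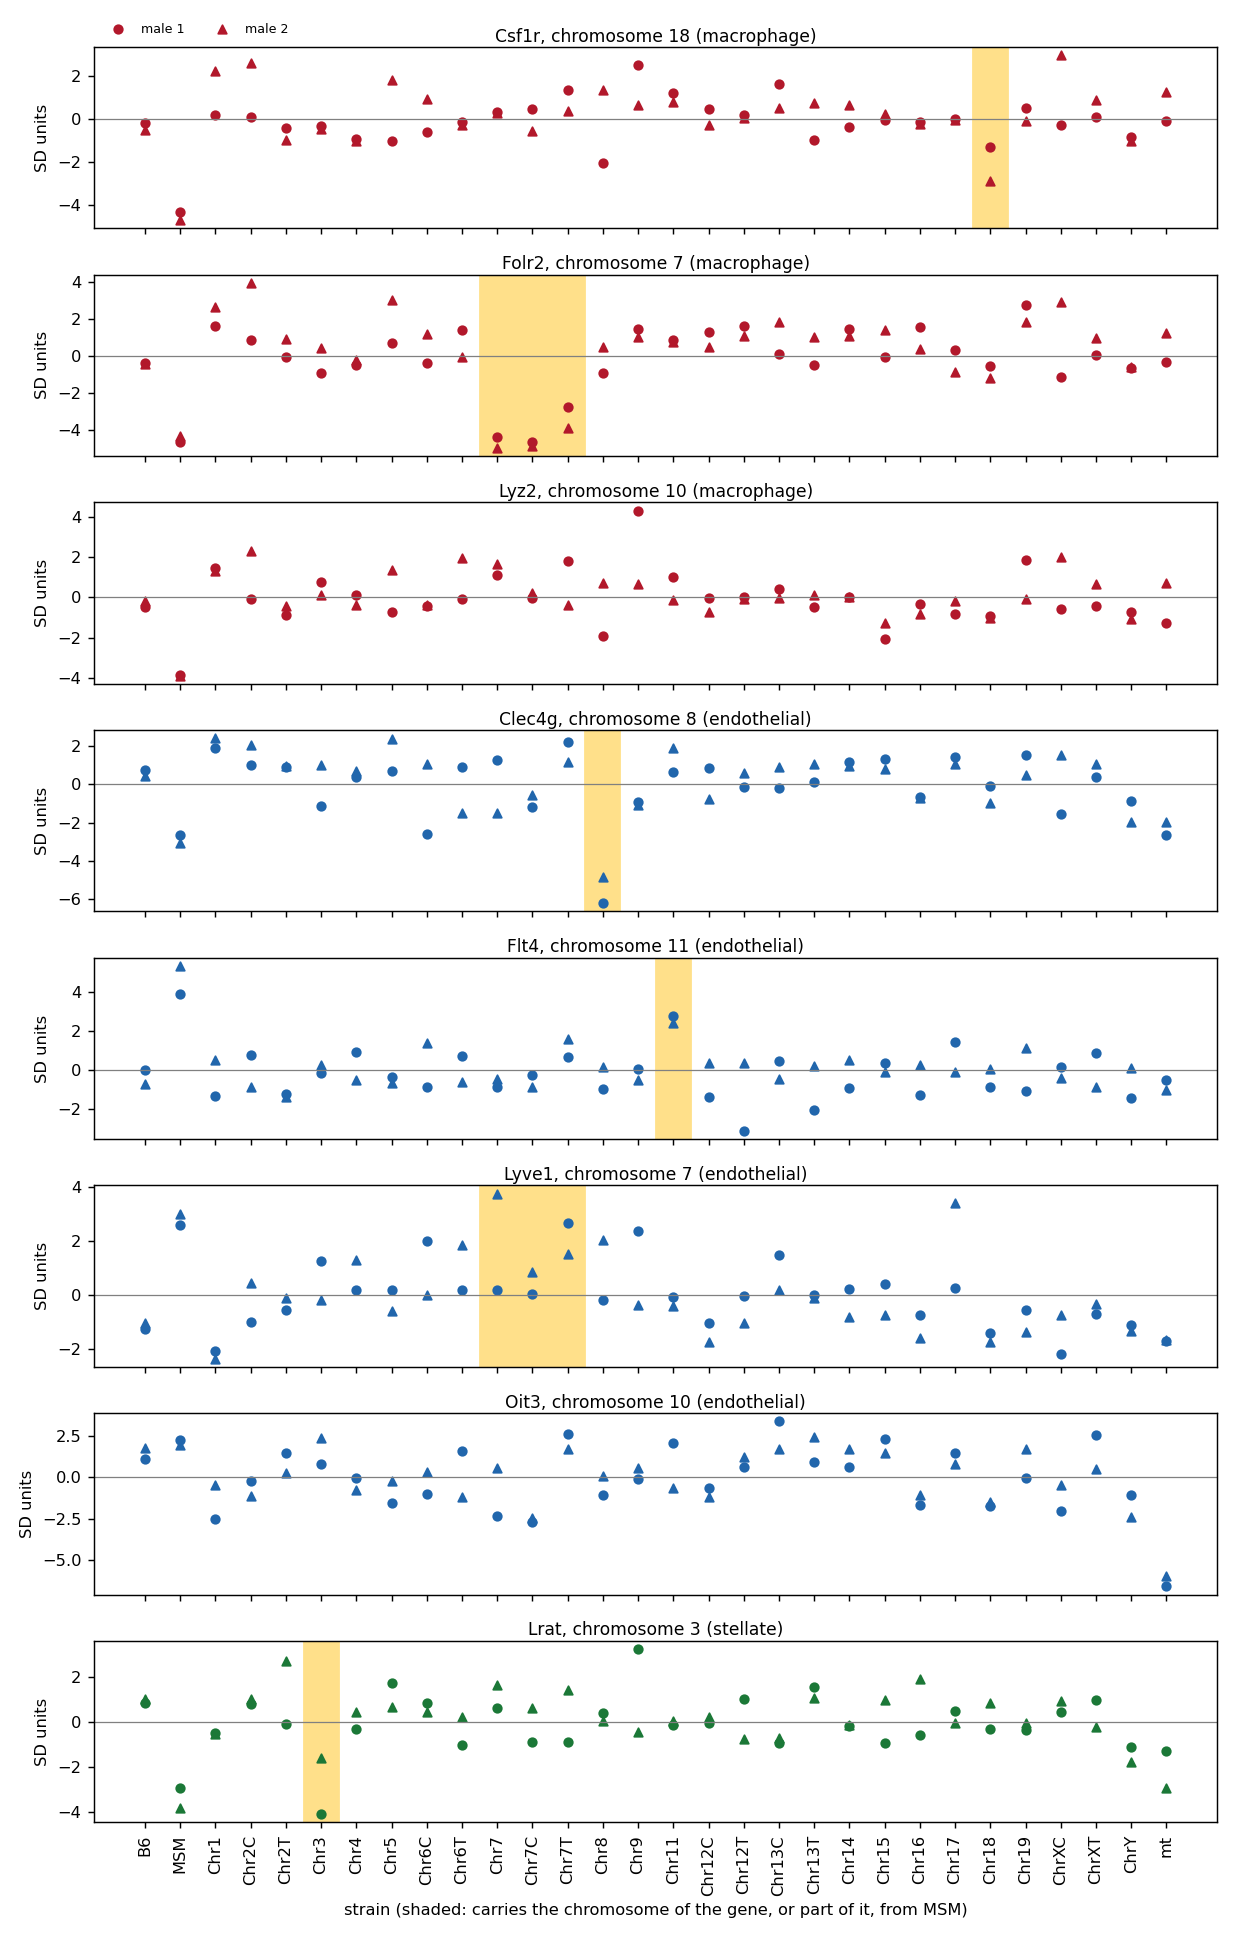
Level of the 8 marker probe sets called over the 30 strains, in SD units from the mean of the 60 males, for male 1 (circles) and male 2 (triangles) of each strain, whose axis labels leave out B6- and MSM. Shading marks strains with the chromosome of the gene, or part of it, from MSM. Folr2 is low in all 3 shaded strains, Clec4g lowest in the B6-Chr8MSM strain, and Oit3 lowest in the B6-mtMSM strain.

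Other markers that differed in MSM were not called in the strain of their chromosome. Csf1r stood at −1.31 and −2.88 SD units in the B6-Chr18MSM males, at −1.76 against B6 (limma adjusted p = 0.679) and −2.33 ± 0.71 against the other strains (0.169), and its other probe sets stood at −2.20 (0.212) and −2.02 (0.276). B6-Chr18MSM had the second lowest mean of the 30 strains on all 3 probe sets of Csf1r. Clec4f, on chromosome 6, stood at −1.06 in B6-Chr6CMSM and −1.34 in B6-Chr6TMSM against the other strains, with neither called. Cd163, on the same chromosome but not called in MSM, had its 2 lowest strain means in these strains. Its males stood at −3.51 and −0.94 in B6-Chr6CMSM and at −1.10 and −3.68 in B6-Chr6TMSM. Against the other strains Cd163 stood at −2.44 (0.165) and −2.61 (0.137). Vsig4, on chromosome X, stood at 0.47 in B6-ChrXCMSM and −0.68 in B6-ChrXTMSM. Lyve1, on chromosome 7, stood at 2.27 in B6-Chr7MSM (0.0975), 0.73 in B6-Chr7CMSM and 2.39 in B6-Chr7TMSM (0.182), and Ecm1, on chromosome 3, at 0.74 in B6-Chr3MSM (0.810).

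Away from their own chromosome, the markers gave 1 call against B6 in all 28 strains. That was Oit3, a secreted protein of sinusoidal endothelium whose gene lies on chromosome 10, in the B6-mtMSM strain. The 60 males ran from −6.60 to 3.38 SD units with a median of 0.16, and the B6-mtMSM males stood at −6.60 and −5.97 and the next lowest male at −2.73. It fell by 7.71 ± 0.99 SD units against B6 (limma adjusted p = 0.000228) and stood at −6.43 against the other strains (adjusted p = 9.25e-06), and both calls held without either B6-mtMSM male (adjusted p up to 0.0171 and 0.0130). On the first array of each male alone the adjusted p was 0.552, and quantile normalization turned the difference to 0.78 of the SD units of the deposited values. Of all tests of the 28 strains against B6, 0.152% were higher and 0.198% lower.

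Other endothelial markers were low in the B6-mtMSM strain as well, without passing the test, a pattern singled out after the values were seen. The B6-mtMSM strain had the lowest mean of the 30 strains in 8 of 12 endothelial genes (Stab1, Stab2, Oit3, Pecam1, Kdr, Flt4, Tek and Eng), against 3.39% of all tested genes. Of 17 endothelial probe sets, 15 were below B6 (median −1.70 SD units) and 16 below the other strains (median −1.64). Such counts were not particular to this strain. In B6-ChrYMSM 15 were below B6 (median −1.07) and 15 below the other strains (median −0.693). In B6-Chr7CMSM 13 were below B6 (median −1.26) and 15 below the other strains (median −0.951). Eng, a co-receptor for BMP9, stood at −2.91 and −1.11 SD units in the B6-mtMSM males on its brighter probe set and at −2.94 and −2.78 on the other, and Stab2, a scavenger receptor, at −1.75 and −2.58. The mean of the 12 endothelial genes was −2.10 and −1.82 SD units, the 2 lowest of 60 males. The macrophage mean of the same males was −0.67 and 0.70. Their neutrophil mean was 1.12 and 2.29 and their lymphocyte mean 0.72 and 1.36, the second male being the highest of 60 in both, and the part of these in the result was not tested.

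The first B6-Chr9MSM male lay above the mean of the 60 males in 29 of 33 marker genes. It was the highest of all in 14 of them, 5 of 11 macrophage, 2 of 12 endothelial and 7 of 10 stellate, while it was the highest in 12.9% and the lowest in 15.3% of all tested genes. Timp1 stood at 5.29 SD units in that male and −0.07 in the other, Lum at 4.93 and −0.41, Cd68 at 4.55 and 0.00, Pdgfrb at 4.42 and −0.26, and Lyz2 at 4.32 and 0.69. The second male lay within 0.69 SD units of the mean of the panel in each of these genes. It lay above that mean in 10 of 11 macrophage genes, as many as the first male. The same held in 3 of 12 endothelial and 1 of 10 stellate genes for the second male.

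Against the other strains, Lyz2 (2.45 SD units, limma adjusted p = 0.0432) and Timp1 (2.76, adjusted p = 0.0241) rose in the B6-Chr9MSM strain. These were the calls besides Oit3 outside the own chromosome in that comparison, in which 0.351% of all tests were higher and 0.388% lower. Without the first B6-Chr9MSM male they stood at 0.64 and 0.085 SD units (adjusted p = 0.9995 for both), and neither passed against B6 with both males (0.144 and 0.117). Without the second B6-Chr9MSM male, more marker calls were made against B6 over the 28 strains in each list. The share of all tested probe sets called in that fit is not given, so the rise is not read as particular to the markers. In the first B6-Chr9MSM male the mean of 4 erythroid genes was −1.84, that of 5 lymphocyte genes −1.67 and that of 4 pancreas genes −1.57 SD units, each the lowest of 60. Its mesothelial (1.53, 2 genes) and adipocyte (1.49, 3 genes) means were the highest of 60. The part of these in the marker levels was not tested.

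**Figure D3:**
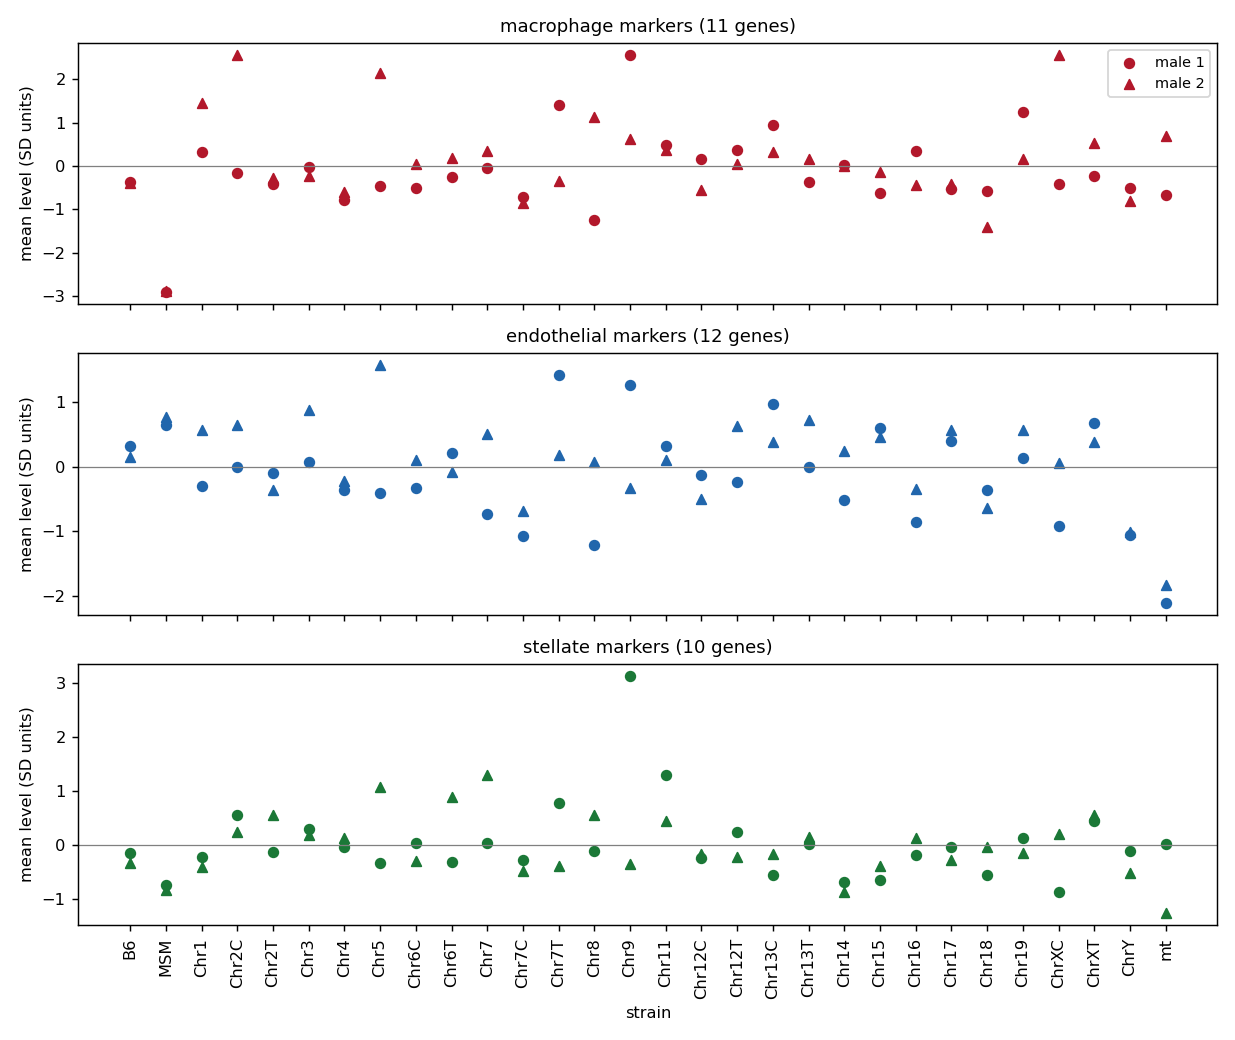
Mean level of the 11 macrophage, 12 endothelial and 10 stellate genes in each of the 60 males, in SD units, by strain (axis labels leave out B6- and MSM; circles male 1, triangles male 2). Both MSM males are lowest in the macrophage genes, both B6-mtMSM males lowest in the endothelial genes, and the first B6-Chr9MSM male is highest in the stellate genes at 3.13.

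The macrophage means also ran high in single males of other strains. B6-ChrXCMSM male 2 stood at 2.57 SD units and its strain mate at −0.40, B6-Chr2CMSM male 2 at 2.56, B6-Chr9MSM male 1 at 2.55 and B6-Chr5MSM male 2 at 2.13. B6-Chr5MSM male 2 had the highest endothelial mean too (1.57) and was the highest of 60 in Marco at 4.44 SD units, Stab2 at 4.61 and Tek at 3.69. Each of these high means belonged to 1 male of its strain.

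The macrophage levels of a male were nevertheless measured closely, since its 2 arrays agreed. Over the 60 males the correlation between the first and second array had a median of 0.911 over the 13 macrophage probe sets (0.856 to 0.957), 0.495 over the endothelial (0.052 to 0.923) and 0.598 over the stellate ones (0.059 to 0.890), against 0.411 over all tested probe sets. Split into parts, the variance of a macrophage probe set lay by a median of 29.2% between strains, 62.6% between males of a strain and 9.39% between the arrays of a male. For endothelial probe sets these medians were 19.1%, 32.4% and 50.7%, and for stellate ones 7.16%, 44.9% and 40.7%, against 10.9%, 22.7% and 60.9% over all. Marco held 0.358% between strains and 95.2% between males of a strain. Folr2 held 74.0% between strains, the largest such part of the markers.

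**Figure D4:**
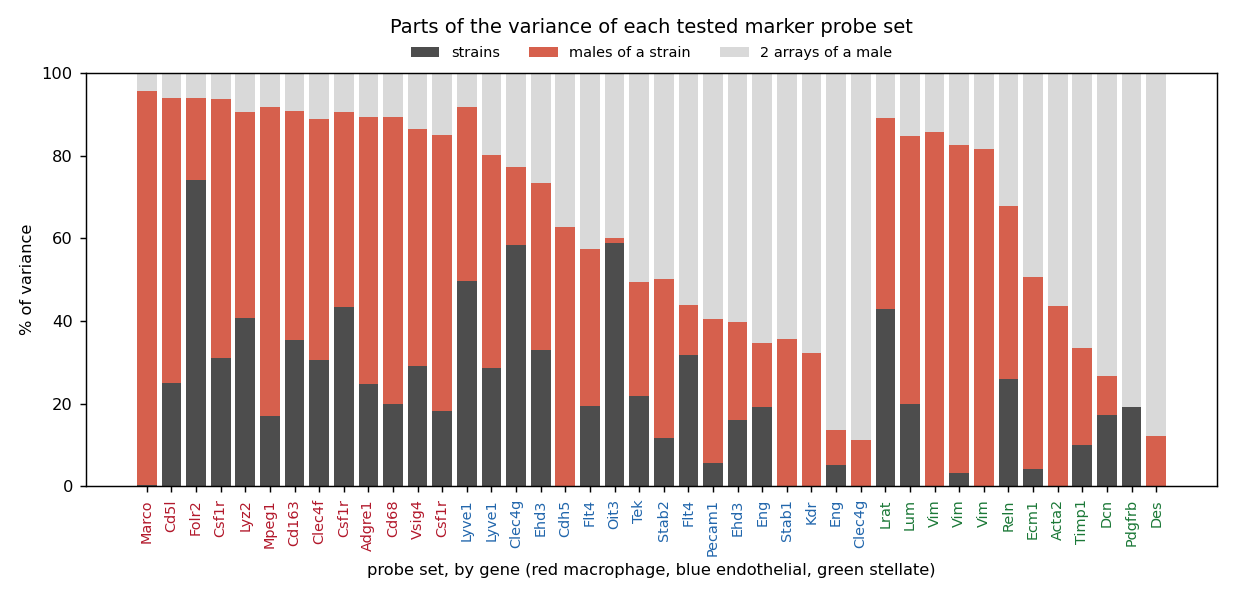
Parts of the variance of each of the 42 tested marker probe sets that lie between strains (dark), between the males of a strain (red) and between the 2 arrays of a male (grey), in percent. The grey part is at most 15.1% in the macrophage probe sets and reaches 88.8% in an endothelial one (Clec4g).

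Macrophage markers rose and fell together from male to male. After each male was centred on its strain, the 55 pairs of the 11 macrophage genes had a median correlation of 0.746 over the 60 males, and all 55 were positive. The 71383326 pairs of all tested genes had a median of −0.0037. The closest pair was Clec4f and Cd5l (0.969), followed by Vsig4 and Cd5l (0.939), Clec4f and Vsig4 (0.908), and Adgre1 and Cd5l (0.907). Cd163 was the loosest, with a median of 0.497 to the other macrophage genes, and its nearest marker was Folr2 (0.755). The points share arrays, so these are descriptions with no test.

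The endothelial genes had a median correlation of 0.266 (47 of 66 pairs positive) and the stellate genes one of 0.317 (43 of 45), which was 0.181 without the B6-Chr9MSM males. Between lists the medians were 0.358 for macrophage with endothelial, 0.227 for macrophage with stellate and 0.162 for endothelial with stellate genes. Quantile normalization gave 0.140, −0.0035 and 0.0934. Over strain means the medians were 0.117, 0.239 and 0.149 as deposited and −0.241, −0.253 and 0.319 under quantile normalization, so the sign of the relation of macrophage genes to both other lists depends on the scaling. With hepatocyte genes the medians over the males, each centred on its strain, were −0.025 for macrophage, 0.058 for endothelial and −0.0087 for stellate genes. Over the 30 strain means the macrophage genes had a median of 0.739, and 0.661 without MSM.

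Some genes stood closer to another list than to their own. Cdh5, the cadherin of endothelial junctions, had a median correlation of 0.753 to the macrophage genes and 0.285 to the endothelial genes, and its nearest marker was Cd68 (0.842). Vim, which macrophages and endothelium express too, stood at 0.613 to the macrophage and 0.458 to the other stellate genes. Lyve1 had its nearest marker in Vim (0.825), and Clec4g in Cd163 (0.749). Ehd3, an endocytic protein of sinusoidal endothelium, stood apart with a negative median to each list, −0.200 to macrophage, −0.116 to endothelial and −0.203 to stellate genes, and its lowest pair was with Vim (−0.555). Lrat had a median of 0.233 to its own list and −0.062 to the macrophage genes.

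**Figure D5:**
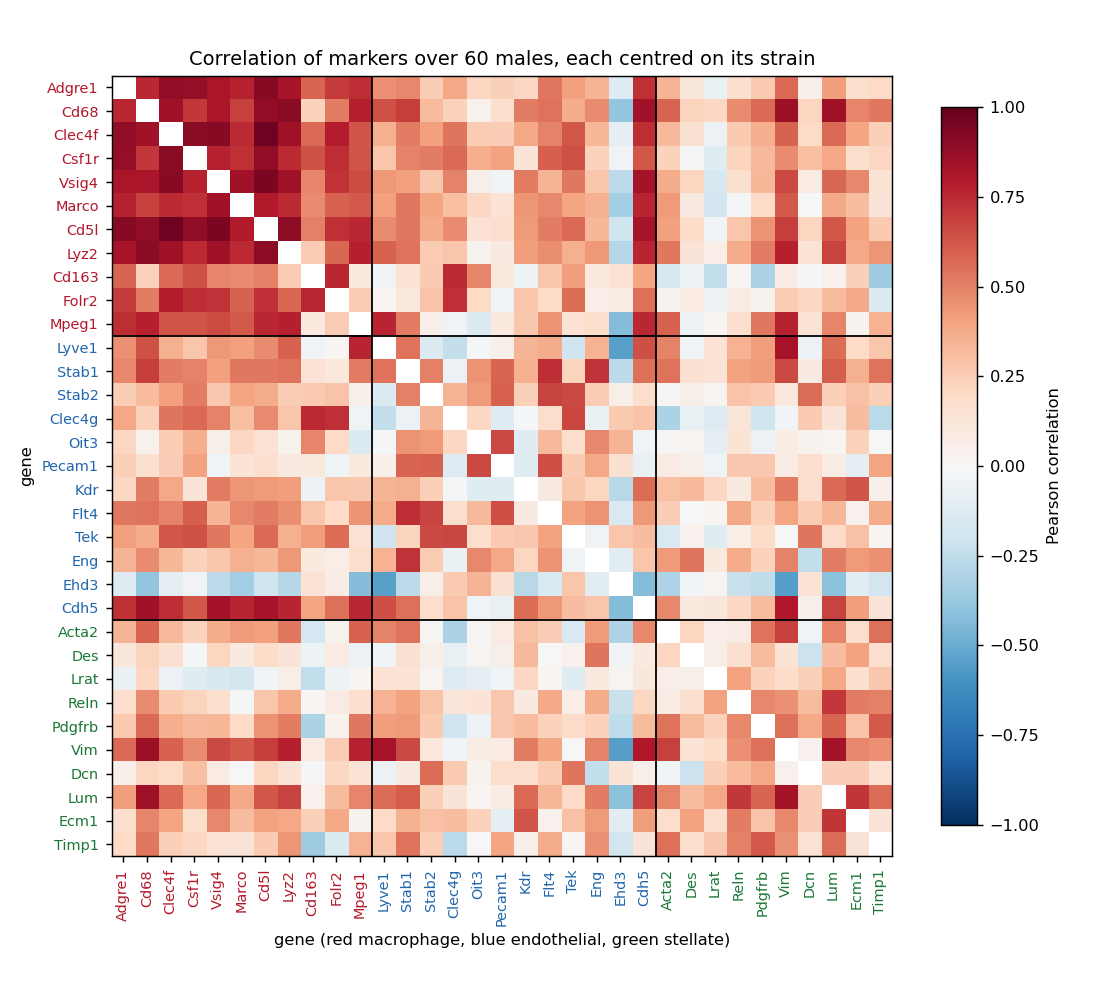
Pearson correlation between marker genes over the 60 males, each centred on its strain (30 differences between strain mates), from −1 (blue) to 1 (red). Lines part the 11 macrophage, 12 endothelial and 10 stellate genes. The macrophage block is red throughout, Cdh5 and Vim are red against it, and Ehd3 is blue against most genes.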

How the data were processed

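The authors deposited log2 signals of 120 Affymetrix mouse genome arrays, whose summary method is not given in the sources used here. The 2 arrays of each of 60 males were averaged (the animal number in the labels was read as the male). Of 45037 probe sets, 22551 with at least 2 males above the median of all values (7.42) were fitted in R 4.3.3 with limma 3.58.1, with 1 mean per strain and 30 residual degrees of freedom. P-values were Benjamini-Hochberg adjusted over all tested probe sets of a contrast and called below 0.05. They measure the spread between these males. The fit was tested on simulated data. Probe sets were named from the platform annotation, updated by gene ID to RefSeq symbols (34945 with 1 symbol, 932 with several, 9160 with none). The members and lists were chosen with earlier results of these data known. All members are named; values per male are given for those called, the brightest probe set stands for a gene, and up to 4 called genes of largest statistic are named per other list, with any beyond these chosen after their values were seen. Alternatives changed the scaling, filter, arrays, reference, prior and males.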

Additional observations from a re-analysis of the deposited data

How the results depend on the processing

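Counts of called marker probe sets are given with the reported count in parentheses. Quantile normalization gave 1 macrophage probe set, 1423593_a_at of Csf1r, higher in MSM (0). It also gave 15 endothelial (2) and 6 stellate (1) higher, and 0 endothelial lower (1). It called 5 macrophage (3), 16 endothelial (4) and 7 stellate (1) over the 30 strains and 1 macrophage in the consomic strains (2). Of all 22551 tested probe sets it called 18430 higher and 668 lower in MSM, and 18407 over the 30 strains. It turned Clec4g in MSM to 0.715 and Oit3 in the B6-mtMSM strain to 0.783 in the SD units of the deposited values (Clec4g 0.28 in the SD of the normalized values, the unit of the list medians under this scaling). It also moved the median correlations over males to 0.680 (0.746) for macrophage, 0.0876 (0.266) for endothelial and 0.0362 (0.317) for stellate genes, and the array-pair correlations to 0.761 (0.495) for endothelial and 0.722 (0.598) for stellate ones. Of all calls in MSM, 96.5% were higher under this scaling, against 57.6% as deposited and 42% with males centred on their median scaled level, and the cause was not tested. Centring called 11 macrophage (3), 8 endothelial (4) and 5 stellate (1) over the 30 strains, 5 endothelial (2) and 1 stellate (0) in the consomic strains, and 3 stellate lower (1) and 0 higher (1) in MSM. With the mean of the other strains as reference, 11 macrophage (6) and 4 stellate (1) were lower and 6 endothelial higher (2) in MSM, and 4 macrophage (2) and 2 stellate (0) were called in the consomic strains. B6 alone as reference gave 3 own-chromosome calls (6). The B6 and MSM males alone gave 10 macrophage (6) and 5 stellate (1) lower. The first arrays gave 1 endothelial higher (2), 1 endothelial over the 30 strains (4), and 0 macrophage (2) and 1 endothelial (2) in the consomic strains. Of all 22551 tested probe sets they gave 1506 higher in MSM and 1484 over the 30 strains. The second arrays gave 1 macrophage (3) and 0 stellate (1) over the 30 strains and 0 stellate higher (1). Of all 22551 they gave 4201 over the 30 strains and 1991 higher in MSM. Without a filter there were 3 stellate higher (1), 2 stellate over the 30 strains (1) and 1 macrophage consomic call (2), and with 1 probe set per gene 1 endothelial higher (2). A filter of 30 males and a prior with a trend moved no count by over 1.5 times.

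With 1 male left out in turn, macrophage probe sets lower in MSM ranged from 2 to 3 (6), endothelial lower from 0 to 1 (1) and stellate higher were 0 (1). Those called over the 30 strains ranged from 1 to 5 for macrophage, 3 to 6 for endothelial and 0 to 5 for stellate. Consomic calls also varied with the male left out, and in each list were most numerous without the second B6-Chr9MSM male. The share of all tested probe sets called in that fit is not given. Single marker calls were kept in 1018 such fits and lost in 86. Many of these fits dropped a male from a strain not named in the call. The pooled counts therefore do not show how a call depends on its own males, which is given with the genes above. No paired analysis was possible because the numbers in the labels name animals and are not shared between strains. The fits without the B6-Chr9MSM males, the contrasts of chromosome parts and the calls outside the own chromosome were chosen after seeing the data. The small spread of the deposited values leaves fold changes unknown, and 2 males per strain limit the precision.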

Other observations

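The 15 marker probe sets that did not pass the filter were not tested, and some of their values are given here. Hgf, the growth factor that stellate cells make for hepatocytes, stood on probe set 1425379_at at 0.74 and 1.31 SD units in the B6 males and at 4.27 and 3.96 in the MSM males. On 1442884_at it stood at −0.43 and −1.32 in B6 and at −3.43 and −2.50 in MSM, so the probe sets of Hgf opposed each other. Timd4, a phosphatidylserine receptor of resident macrophages, stood at −0.11 and −0.46 in B6 and at −2.47 and −2.22 in MSM. Spic stood on 1449134_s_at at −0.23 and −0.49 in B6 and at −1.32 and −1.15 in MSM. The B6 and MSM males overlapped on 1458297_s_at of Marco (difference −0.17 SD units) and 1418555_x_at of Spic (0.047). Of the dim Acta2 probe sets, 1456658_at stood at 0.20 and −2.22 in B6 and at 2.19 and 2.42 in MSM.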
